A study of Bos taurus with 2 samples.

Results

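KIT, VWF, A2M and PECAM1 are 4 of the 35643 features listed for both libraries, each present in 1 row under its symbol (ENSBTAG00000002699, ENSBTAG00000012265, ENSBTAG00000018137 and ENSBTAG00000012066, in that order). Of these, VWF and PECAM1 are best known from blood vessels. All 4 were chosen by symbol, with earlier results of these same libraries known, because they had been seen in blastocyst nuclei. Their levels are therefore given as a description, without a test. The question followed here is which nuclei of the bovine embryo carry them, whether they occur in the same nuclei, and what is left of them in the blastoid.

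KIT is the receptor tyrosine kinase for stem cell factor (KITLG) and is known from blood progenitors, mast cells, melanocytes and germ cells. VWF is the large multimeric glycoprotein that carries clotting factor VIII (F8) and tethers platelets, and endothelial cells keep it in storage granules. A2M is a secreted inhibitor that traps proteases of many classes and is cleared with them through the receptor LRP1. PECAM1 is an immunoglobulin-family adhesion molecule of endothelial junctions, platelets and leukocytes, and in mouse it also marks pluripotent cells of the inner cell mass. The blastocyst has no vessels: its lineages are the trophectoderm, which forms the outer wall and later the placenta, the hypoblast, which lines the cavity and later the yolk sac, and the epiblast, which forms the fetus.

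Single nuclei were sequenced from Bos taurus material of genotype WT in 2 libraries. The embryo library came from blastocysts at day 8. The blastoid library came from blastocyst-like aggregates, for which 8 bEPSC, 8 bXEN and 16 bTSC cells were put in each microwell in medium with LIF, Activin A, Chir99021 and the CEPT cocktail. Material of both kinds was frozen before nuclei were isolated, and the number of embryos or blastoids pooled in each library is not given in the sources used here. With 1 library per group there is no replicate check, no p-value is given, and every difference below is between these libraries only.

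UMIs (unique molecular identifiers, 1 per captured RNA molecule) came to 7029253 over 944 embryo barcodes (median 6920) and 7575395 over 1957 blastoid barcodes (median 2012). Filters kept 827 and 1914 nuclei, of which 688 and 286 reached 4000 UMIs, and no kept barcode occurred in both. Clusters were made without these 4 genes and without any marker gene. In the embryo they gave 400 hypoblast-like, 233 trophectoderm-like and 70 epiblast-like nuclei, with medians of 7686, 8760 and 10145.5 UMIs. A further 124 embryo nuclei, with a median of 1848.5 UMIs and IFI6 and keratins among their leading genes, are called shallow and carry no lineage name. The epiblast-like cluster was led by HMGA2, TMEFF2 and NANOG but also held HNF4A, a hypoblast marker, in 94.3% of its nuclei. In the blastoid 1619 nuclei were rich in ribosomal protein RNA (15.7% of UMIs), 154 were trophectoderm-like and 141, led by LMX1A, LDB2, NLGN1 and DCC, stayed unnamed. No blastoid cluster took the name hypoblast-like or epiblast-like.

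In the embryo, KIT, VWF and A2M lay mainly in hypoblast-like nuclei and stood at a small fraction of that level in trophectoderm-like nuclei. Their epiblast-like level depended on how that group was drawn: VWF was at 35.5 CPM over 70 nuclei and 6.02 CPM over the 16 of a finer cluster, and A2M at 68.3 and 6.02 CPM. PECAM1 ran the opposite way between hypoblast-like and trophectoderm-like nuclei and was highest in trophectoderm-like nuclei. Levels are given as CPM, the UMIs of a gene over all UMIs of a group of nuclei on the usual CPM scale, with exact Poisson 95% intervals. Shares of nuclei with a UMI have exact Clopper-Pearson 95% intervals. All intervals cover counting error only.

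KIT, the receptor, summed to 2336 UMIs in hypoblast-like nuclei, a level of 697 CPM (669 to 726). It stood at 359 CPM (317 to 405; 263 UMIs) in epiblast-like nuclei and at 26.9 CPM (20.6 to 34.5; 62 UMIs) in trophectoderm-like nuclei. The shallow nuclei held 200 CPM (161 to 244; 94 UMIs). None of these 4 intervals overlaps another. The place of the epiblast-like value depends on how that group is drawn: it was 78.3 CPM (39.1 to 140) with at least 1000 genes per nucleus and 120 CPM (73.5 to 186) with finer clusters, both lower in value than the shallow nuclei, though the second interval overlaps theirs. A single hypoblast-like nucleus held between 0 and 31 KIT UMIs with a median of 5, and 209 of the 400 held at least 5.

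VWF, the clotting glycoprotein, was at 77.2 CPM (68.1 to 87.2; 259 UMIs) in hypoblast-like, 35.5 CPM (23.2 to 52.0; 26 UMIs) in epiblast-like and 3.90 CPM (1.79 to 7.41; 9 UMIs) in trophectoderm-like nuclei. Its level in the shallow nuclei, 10.6 CPM (3.45 to 24.8; 5 UMIs), overlapped both the epiblast-like and the trophectoderm-like value. Most hypoblast-like nuclei held no VWF UMI: 257 had 0, 81 had 1 and 6 had 5 or more.

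A2M, the protease inhibitor, was at 135 CPM (123 to 148; 453 UMIs) in hypoblast-like, 68.3 CPM (50.7 to 90.0; 50 UMIs) in epiblast-like and 2.60 CPM (0.955 to 5.66; 6 UMIs) in trophectoderm-like nuclei. The shallow nuclei, at 44.6 CPM (27.6 to 68.2; 21 UMIs), overlapped the epiblast-like value. A2M was spread unevenly among hypoblast-like nuclei: 242 held none, while 27 held 5 or more and the highest held 15.

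PECAM1, the adhesion molecule, was at 92.0 CPM (80.0 to 105; 212 UMIs) in trophectoderm-like nuclei and at 28.9 CPM (23.5 to 35.3; 97 UMIs) in hypoblast-like nuclei. It was at 27.6 CPM (14.7 to 47.2; 13 UMIs) in the shallow nuclei and at 6.83 CPM (2.22 to 15.9; 5 UMIs) in epiblast-like nuclei. The hypoblast-like and shallow values overlap, and so do the shallow and epiblast-like values. Thus trophectoderm-like nuclei, 28.2% of the kept embryo nuclei, held 64.8% of the PECAM1 UMIs, whereas hypoblast-like nuclei, 48.4% of them, held 84.8% of KIT, 86.6% of VWF and 85.5% of A2M.

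**Figure D1:**
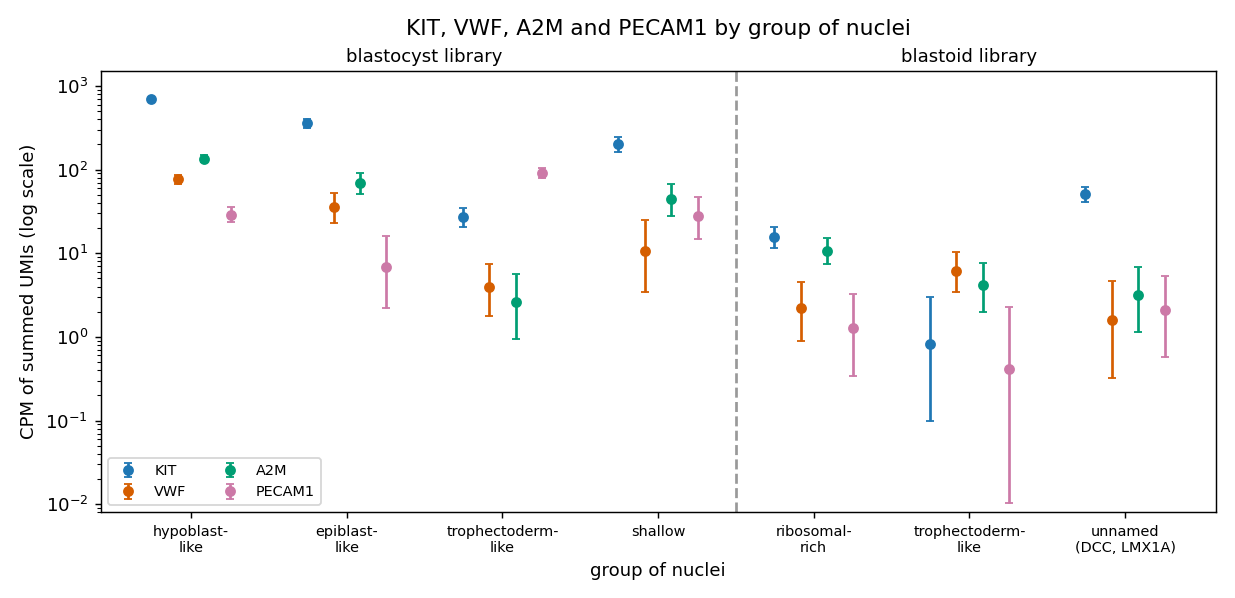
Level of KIT, VWF, A2M and PECAM1 (CPM of summed UMIs, log axis) in each group of nuclei of the embryo library (left) and the blastoid library (right); points are single sums per library and bars are exact Poisson 95% intervals. KIT, VWF and A2M are highest in the hypoblast-like group (697, 77.2 and 135 CPM), PECAM1 is highest in the trophectoderm-like embryo group (92.0 CPM), and every blastoid value is lower than the highest embryo value of the same gene.

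As ratios between the hypoblast-like and trophectoderm-like nuclei of the embryo, KIT was 25.9-fold higher (20.1 to 33.9), VWF 19.8-fold higher (10.3 to 43.8) and A2M 51.9-fold higher (23.7 to 142) in the hypoblast-like group. PECAM1 was 3.18-fold lower there (2.49 to 4.09). Among the 13317 genes that reached 20 UMIs in these groups together, 6.73% were at least 4-fold higher in hypoblast-like nuclei and 5.43% at least 4-fold lower. KIT, VWF and A2M are past that mark and PECAM1 is not. These values were among those known when the genes were chosen, so nothing is read from the count.

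Between epiblast-like and hypoblast-like nuclei, where 0.824% of 12251 genes were at least 4-fold higher and 0.4% at least 4-fold lower in the epiblast-like group, KIT was 1.94-fold lower (1.71 to 2.21) in the epiblast-like nuclei, VWF 2.18-fold lower (1.45 to 3.39), A2M 1.98-fold lower (1.48 to 2.71) and PECAM1 4.24-fold lower (1.76 to 13.3). These values rest on the grouping. With nuclei picked by marker genes in place of clusters, epiblast-like and hypoblast-like levels were 592 and 703 CPM for KIT, 68.4 and 68.4 CPM for VWF, 115 and 138 CPM for A2M and 14.4 and 23.8 CPM for PECAM1, and the intervals of all but KIT overlapped. The epiblast-like pick, by NANOG and PRDM14, set no limit on GATA4, HNF4A or GATA6. PRDM14 had 188 of its 252 embryo UMIs in hypoblast-like nuclei, so this pick can hold nuclei of the hypoblast-like cluster. With finer clusters, where 16 nuclei were epiblast-like, the log2 ratio was -2.56 for KIT, -3.57 for VWF and -4.28 for A2M, and -0.74 for PECAM1.

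A share of nuclei with a UMI depends on depth, so each was also taken after every nucleus had been thinned to 2000 UMIs, which left out 8 hypoblast-like, 3 trophectoderm-like, 0 epiblast-like and 63 shallow nuclei. As deposited, a KIT UMI was found in 88.5% (85.0 to 91.5) of hypoblast-like, 80.0% (68.7 to 88.6) of epiblast-like and 12.4% (8.50 to 17.4) of trophectoderm-like nuclei. After thinning the shares of KIT were 65.6%, 40.0% and 3.91%. The same order holds for all 3 of the genes that were high in hypoblast-like nuclei. VWF went from 35.8%, 24.3% and 3.00% as deposited to 13.3%, 8.57% and 0.870% thinned, and A2M from 39.5%, 37.1% and 1.72% to 18.9%, 8.57% and 0.435%. The epiblast-like and hypoblast-like shares of A2M nearly met as deposited, where the epiblast-like nuclei were deeper, and lay further apart at equal depth. PECAM1 was in 49.8% (43.2 to 56.4) of trophectoderm-like, 17.8% (14.1 to 21.9) of hypoblast-like and 4.29% (0.893 to 12.0) of epiblast-like nuclei, or 18.3%, 5.61% and 1.43% after thinning.

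**Figure D2:**
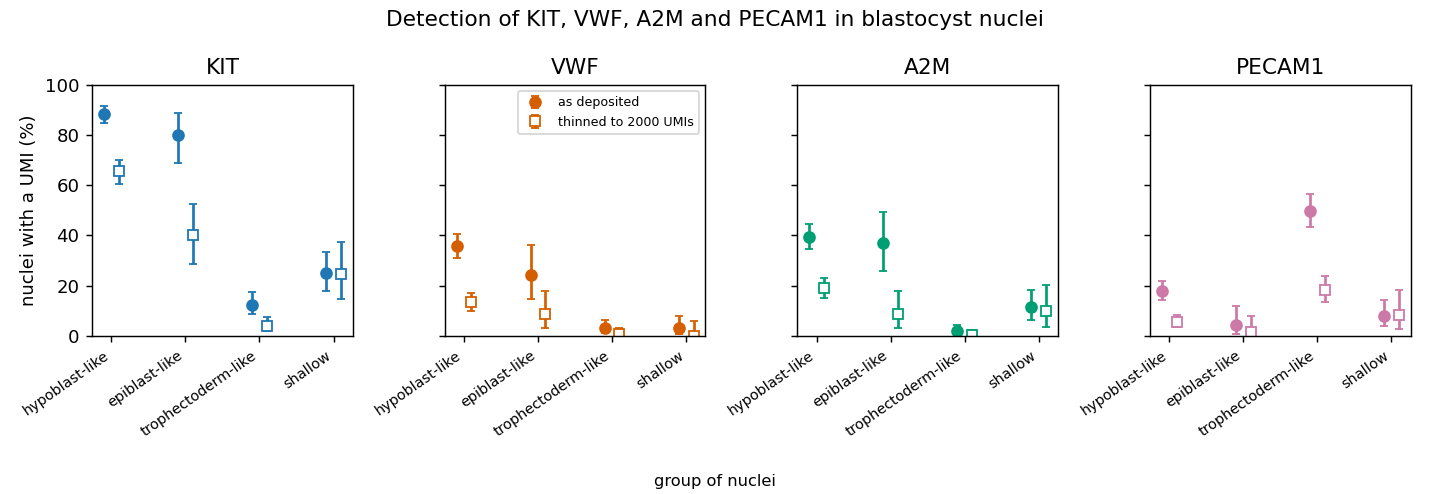
Share of embryo nuclei with at least 1 UMI (percent, linear axis from 0 to 100) of KIT, VWF, A2M and PECAM1 by group; filled circles are counts as deposited, open squares are nuclei thinned to 2000 UMIs, bars are exact binomial 95% intervals. KIT goes from 88.5% to 65.6% in hypoblast-like nuclei on thinning, and PECAM1 is the only gene of the 4 whose share is highest in trophectoderm-like nuclei, before (49.8%) and after thinning (18.3%).

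Droplet libraries hold some free RNA, so the low levels are given beside those of lineage markers with at least 100 UMIs that were at least 4-fold lower in the other lineage. In trophectoderm-like nuclei 10 such hypoblast markers stood at 1.31% (NID1) to 24.0% (RSPO3) of their hypoblast-like CPM, with a median of 4.90%. KIT stood there at 3.86% of its hypoblast-like CPM, VWF at 5.05% and A2M at 1.93%. In hypoblast-like nuclei 9 such trophectoderm markers stood at 0.405% (SLC34A2) to 20.1% (TP63) of their trophectoderm-like CPM, with a median of 9.67%, and PECAM1 at 31.5%. The 4-fold limit sets the upper end of both ranges, so nothing is read from a gene's place against them. The part of free RNA in these low counts was not tested. KIT was not even among trophectoderm-like nuclei, at 39.1 CPM (29.2 to 51.2) in a finer cluster of 126 and 6.19 CPM (2.27 to 13.5) in one of 106. Among the 316 hypoblast-like nuclei without any UMI of the trophectoderm factors GATA2 and GATA3, PECAM1 was still at 24.7 CPM (18.9 to 31.6) and in 14.9% of nuclei. In the other 84, which had a GATA2 or GATA3 UMI and were deeper (median 9513.5 against 7363 UMIs), it was at 41.7 CPM (29.0 to 58.0).

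A single trophectoderm-like nucleus held UMIs of all 4 genes, with KIT at 4, VWF at 3, A2M at 3 and PECAM1 at 2. It had 34356 UMIs against the class median of 8760, and it carried markers of both lineages: GATA2 at 5, GATA3 at 1, HNF4A at 14 and PDGFRA at 14 UMIs. It supplied 3 of the 9 VWF UMIs and 3 of the 6 A2M UMIs of its class. Without it, an alternative added after the data had been seen, the log2 ratio of A2M between hypoblast-like and trophectoderm-like nuclei was 6.68 in place of 5.70, and that of VWF 4.87 in place of 4.31.

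Levels also ran over a range within the hypoblast-like nuclei. Finer clustering, again without these genes, divided the embryo nuclei into 20 micro-clusters of 16 to 74 nuclei, of which 12 were mainly hypoblast-like. KIT ran over those 12 from 603 CPM (528 to 686; 230 UMIs) to 868 CPM (733 to 1020.4; 146 UMIs). VWF ran from 32.7 CPM (14.1 to 64.4; 8 UMIs) to 101 CPM (74.2 to 135; 46 UMIs), and PECAM1 from 8.20 CPM (1.69 to 24.0; 3 UMIs) to 57.7 CPM (36.2 to 87.4; 22 UMIs). A2M ran from 29.7 CPM (9.65 to 69.3; 5 UMIs), in the micro-cluster with the highest KIT level, to 299 CPM (226 to 387; 57 UMIs) in one with KIT at 708 CPM. Low counts widen such ranges, and the lowest and highest of 12 values were picked for each, so the ranges are not ranked between genes. Both of these A2M micro-clusters held 20 nuclei.

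The epiblast-like nuclei also divided. A micro-cluster of 16 nuclei with NANOG at 193 CPM and GATA6, the hypoblast factor, at 193 CPM held KIT at 120 CPM (73.5 to 186; 20 UMIs in 7 nuclei), 1 VWF UMI and 1 A2M UMI. The other, of 55 nuclei with NANOG at 104 CPM and GATA6 at 724 CPM, held KIT at 443 CPM, VWF at 49.6 CPM and A2M at 83.8 CPM. The epiblast-like level of KIT therefore depends on where that group is drawn. It was 359 CPM for the cluster of 70, 120 CPM for the 16 nuclei, and 592 CPM (541 to 646) for 84 nuclei picked by at least 2 UMIs of NANOG and PRDM14 without GATA2 or GATA3. That pick set no limit on the hypoblast factors GATA4, HNF4A and GATA6.

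Over the 20 micro-clusters, KIT, VWF and A2M moved together and PECAM1 moved the other way. Pearson's r of log2(CPM + 10) was 0.92 for KIT with VWF, 0.90 for KIT with A2M and 0.90 for VWF with A2M. It was -0.66 for PECAM1 with KIT, -0.56 with VWF and -0.59 with A2M. The micro-clusters come from 1 library and mostly separate hypoblast-like from trophectoderm-like nuclei, so these coefficients describe that separation. They are not evidence from independent samples.

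**Figure D3:**
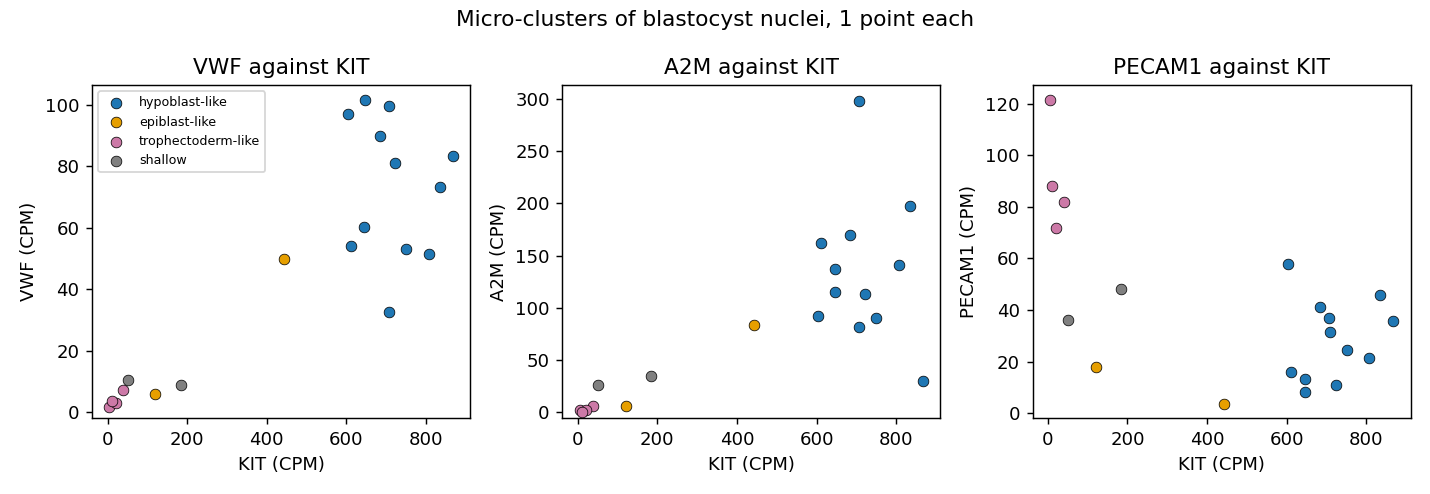
VWF, A2M and PECAM1 against KIT (all in CPM, linear axes) over 20 micro-clusters of embryo nuclei, coloured by the main group of their nuclei. The 12 hypoblast-like micro-clusters lie at KIT levels of 603 to 868 CPM with no visible trend among themselves, and the 4 trophectoderm-like ones lie at low KIT and at PECAM1 levels of 72.0 to 121 CPM.

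Counted per nucleus over the whole embryo library, 470 of 827 nuclei held a KIT UMI, 171 VWF, 202 A2M and 200 PECAM1. None of the 4 was found in 216 nuclei, exactly 1 in 294, 2 in 223, 3 in 73 and all 4 in 21. VWF was found in 31.9% (27.7 to 36.3) of nuclei with KIT and in 5.88% (3.68 to 8.85) of those without. A2M was found in 38.5% (34.1 to 43.1) and 5.88% (3.68 to 8.85), respectively. PECAM1 ran the other way, at 18.7% (15.3 to 22.6) of nuclei with KIT and 31.4% (26.6 to 36.5) of nuclei without. These contrasts mix lineages.

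Within the 400 hypoblast-like nuclei the pairing was weaker. All 3 of KIT, VWF and A2M were found in 61 nuclei, 15.2%, and all 4 genes in 20. A2M was in 42.4% (37.2 to 47.7) of the 354 nuclei with KIT and in 17.4% (7.82 to 31.4) of the 46 without. Depth moved with this contrast, since hypoblast-like nuclei with KIT had a median of 7901.5 UMIs and those without had 5481.5. At 2000 UMIs per nucleus the A2M shares were 21.4% (16.5 to 26.9) and 14.1% (8.69 to 21.1), which overlap. VWF was in 36.4% (31.4 to 41.7) of nuclei with KIT and 30.4% (17.7 to 45.8) without, and after thinning the order turned to 11.7% (8.02 to 16.2) and 16.3% (10.5 to 23.6), again overlapping.

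VWF and PECAM1, the pair best known from endothelium, were both found in 42 embryo nuclei, 38 of them hypoblast-like. Among hypoblast-like nuclei PECAM1 was in 26.6% (19.5 to 34.6) of those with VWF and 12.8% (9.01 to 17.6) of those without. The nuclei with VWF were deeper (median 9246 against 6951 UMIs). At equal depth the shares were 5.77% (1.21 to 15.9) and 5.59% (3.40 to 8.59). No pair of the 4 genes had separated intervals within hypoblast-like nuclei after thinning.

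**Figure D4:**
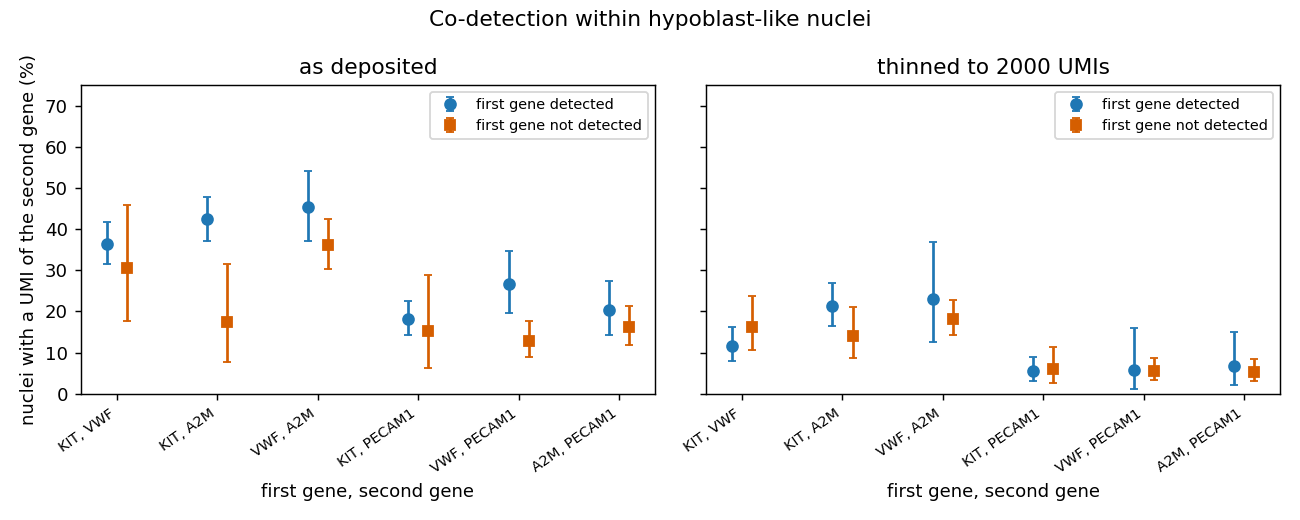
Share of hypoblast-like embryo nuclei with a UMI of the second gene of each pair (percent) among nuclei with (circles) and without (squares) the first gene, as deposited (left) and thinned to 2000 UMIs (right); bars are exact binomial 95% intervals. The gap for A2M by KIT is 42.4% against 17.4% as deposited and 21.4% against 14.1% after thinning, where the intervals of all 6 pairs overlap.

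The vessel genes that define endothelium were set beside the 4 genes. Of 34 listed endothelial genes 33 were in the feature list, and 6 of these had no UMI in the kept embryo nuclei (TAL1, MMRN2, LYVE1, SELE, CD34 and CLEC14A), which allows each up to 0.437 CPM (3 counts over the library), and 15 had at most 3. The summed list was led by ANGPT2, a secreted ligand of the TEK receptor, with 1610 of its 2087 UMIs, followed by FLT1, a VEGF receptor, with 139 and CDH5, the endothelial cadherin, with 57. The summed level, most of it ANGPT2, was 339 CPM in hypoblast-like, 305 CPM in epiblast-like, 283 CPM in trophectoderm-like and 164 CPM in shallow nuclei. Of 8 endothelial genes compared between hypoblast-like and trophectoderm-like nuclei, ENG was at least 4-fold higher in hypoblast-like nuclei and 0 were lower. Of all genes 6.73% were higher and 5.43% lower there. The median log2 ratio of the 8 was 1.00, against 0.22 for all genes. Of 8 defining genes (CDH5, TEK, TIE1, CLDN5, ERG, EMCN, CD34 and ESAM), no nucleus held 3 or more and 6 of 827 held 2. Among the 42 nuclei with both VWF and PECAM1, 13 held 1 or more of the 8, and 1 held 2. Of the 498 nuclei with neither VWF nor PECAM1, 39 held 1 or more, and of all 827 nuclei 94 did. Depth was not matched in these counts.

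Platelets and mast cells are other carriers of these genes. Of 17 blood genes 6 were at 0: the platelet receptor genes GP1BA, GP1BB and GP9, the mast cell genes CPA3 and MS4A2, and CD79A of B cells had no UMI in the kept embryo nuclei. The platelet integrin ITGA2B had 12 UMIs, the blood factors GATA1 and LMO2 had 24 and 26, and RUNX1 had 1965. With RUNX1 leading it, the summed list was at 441 CPM in hypoblast-like, 487 CPM in epiblast-like and 42.1 CPM in trophectoderm-like nuclei.

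**Figure D5:**
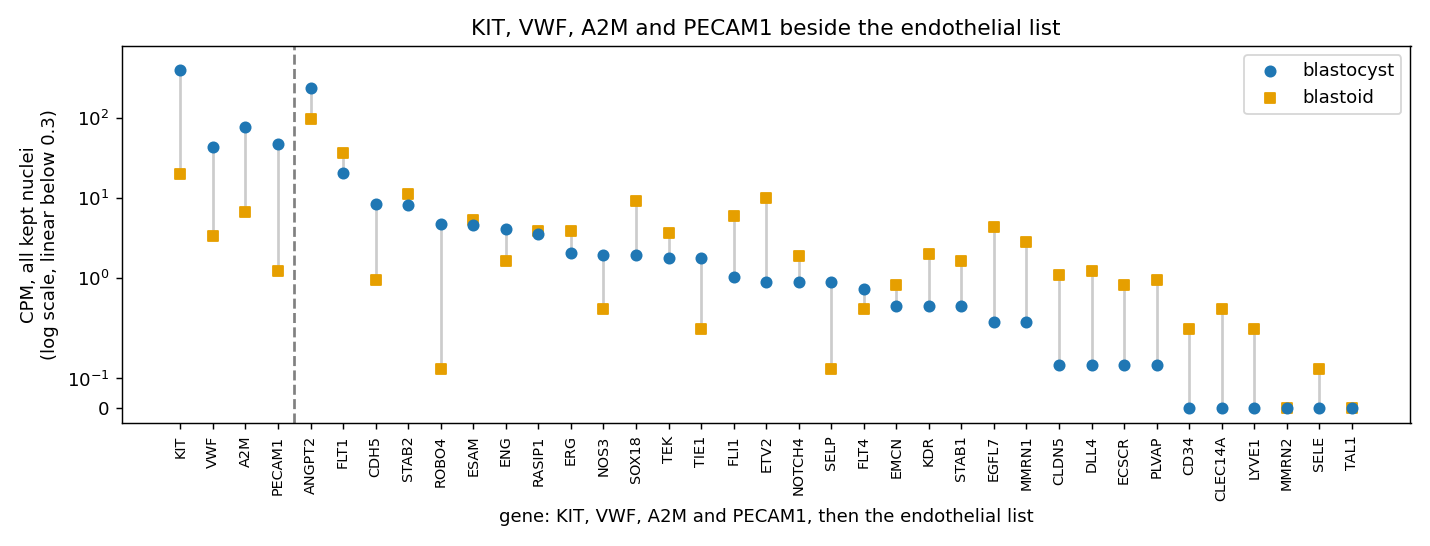
CPM over all kept nuclei of the embryo (circles) and the blastoid (squares) for KIT, VWF, A2M and PECAM1, left of the dashed line, and for the 33 endothelial genes in order of their embryo level, on a log axis that is linear below 0.3. The 4 genes lie at 43.6 to 402 CPM in the embryo and 1.20 to 19.8 CPM in the blastoid, while 6 endothelial genes lie at 0 in the embryo and the others apart from ANGPT2 and FLT1 lie under 10 CPM there.

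In the blastoid library all 4 genes were lower. KIT was at 19.8 CPM (16.7 to 23.2; 148 UMIs) against 402 CPM (387 to 417; 2755 UMIs) in the embryo, 20.3-fold lower (17.2 to 24.1). VWF was at 3.34 CPM (25 UMIs) against 43.6 CPM (299 UMIs), 13.0-fold lower (8.66 to 20.5). A2M was at 6.68 CPM (50 UMIs) against 77.2 CPM (530 UMIs), 11.6-fold lower (8.64 to 15.8). PECAM1 was at 1.20 CPM (9 UMIs) against 47.7 CPM (327 UMIs), 39.6-fold lower (20.6 to 87.4). All 4 were past 4-fold, where 7.11% of 16904 genes were at least 4-fold lower and 11.9% at least 4-fold higher in the blastoid. The choice of the genes used this contrast, so nothing is read from that count.

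Depth and makeup differed between the libraries, so the contrast was repeated on nuclei with at least 4000 UMIs. There KIT was 17.6-fold lower (14.4 to 21.7), VWF 10.6-fold (6.59 to 18.1), A2M 20.4-fold (12.5 to 36.0) and PECAM1 41.1-fold (17.4 to 127) in the blastoid. In that subset 5.81% of 16115 genes were at least 4-fold lower and 8.95% at least 4-fold higher. The value for A2M moved most. Of its 50 blastoid UMIs, 34 lay in ribosomal-rich nuclei and 16 in nuclei of at least 4000 UMIs. Shares of nuclei with a UMI after thinning to 2000 UMIs gave smaller gaps for KIT, A2M and PECAM1 and a wider one for VWF (log2 ratio -4.28 against -3.71 by CPM). KIT was in 4.62% of blastoid and 41.0% of embryo nuclei, VWF in 0.411% and 7.97%, A2M in 1.54% and 11.6%, and PECAM1 in 0.514% and 9.30%. These shares cover only nuclei that reached 2000 UMIs. Thinning left out 941 of the 1914 blastoid nuclei, 936 of them ribosomal-rich, and 74 of the 827 embryo nuclei. For KIT, VWF and A2M, a blastoid with fewer hypoblast-like nuclei and a blastoid with less RNA per such nucleus cannot be told apart from whole-library sums. PECAM1 lay mainly in trophectoderm-like embryo nuclei and is compared within that group below.

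What was left of KIT in the blastoid lay mostly in the unnamed cluster led by LMX1A, LDB2, NLGN1 and DCC. These 141 nuclei held 97 of the 148 KIT UMIs, 51.1 CPM (41.4 to 62.3), in 41.8% (33.6 to 50.4) of nuclei, or 12.9% (7.80 to 19.6) after thinning. The blastoid trophectoderm-like nuclei, which were deeper (median 14620 against 10924 UMIs), held 2 KIT UMIs in 154 nuclei, 1.30% (0.158 to 4.61). The unnamed cluster was 13.6-fold (11.1 to 16.9) below the embryo's hypoblast-like nuclei in KIT. In the ribosomal-rich nuclei KIT was at 15.5 CPM (11.5 to 20.5).

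VWF and A2M did not share that place. In the unnamed cluster VWF had 3 UMIs and A2M 6, ratios to the embryo's hypoblast-like nuclei of 48.9-fold (16.6 to 239) and 42.8-fold (19.5 to 117) lower. PECAM1 had 4 UMIs there, 13.7-fold lower (5.20 to 51.4). In this contrast 7.99% of 13841 genes were at least 4-fold lower, and the blastoid cluster is not a hypoblast-like group. A2M was highest among blastoid groups in the ribosomal-rich nuclei at 10.7 CPM (7.44 to 15.0; 34 UMIs in 30 nuclei), an interval that overlaps that of the trophectoderm-like nuclei, 4.13 CPM (1.98 to 7.60). VWF was highest in the blastoid trophectoderm-like nuclei at 6.20 CPM (3.47 to 10.2; 15 UMIs), an interval that overlaps that of the ribosomal-rich nuclei, 2.21 CPM (0.890 to 4.56).

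PECAM1 could be compared within a lineage, since both libraries held a trophectoderm-like group. It had 1 UMI in the 154 blastoid nuclei and 212 UMIs in the 233 embryo nuclei, at closely matched sums of 2418981 and 2305418 UMIs. The ratio was 222-fold lower in the blastoid, with a counting interval of 39.5 to 8827. Of 12822 genes in this contrast 4.61% were at least 4-fold lower and 7.03% at least 4-fold higher. KIT had 2 against 62 UMIs, while VWF (15 against 9 UMIs) and A2M (10 against 6) differed by less than counting error. The leading genes of the groups differed: GATA2, SLC34A2, COL28A1 and GIPC2 were among the top 10 of the embryo cluster, and MFAP5, TNFSF8 and MACC1 among those of the blastoid cluster.

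The KIT pathway was partly present around the receptor. KITLG, the ligand, had 60 UMIs in hypoblast-like (17.9 CPM), 1 in epiblast-like and 31 in trophectoderm-like embryo nuclei (13.5 CPM). In the unnamed blastoid cluster it had 101 UMIs, 53.2 CPM. There 23 of 141 nuclei held both KIT and KITLG, and KITLG was found in 39.0% of nuclei with KIT and 36.6% of those without. Among KIT's family of receptors, PDGFRA, whose gene is next to KIT, was at 205 CPM in the embryo and 4.81 CPM in the blastoid, and FLT3 was at 72.0 and 4.01 CPM. PDGFRB and CSF1R had 1 and 4 UMIs in the embryo.

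Of the 26 listed KIT pathway genes 21 had at least 20 UMIs, the minimum used for lists. In the blastoid 5 were at least 4-fold lower (PDGFRA, FLT3, SPRY2, SPRY4 and MITF) and 0 higher, with a median log2 ratio of -0.85 against -0.09 for all genes, of which 7.11% were called lower and 11.9% higher. In nuclei of at least 4000 UMIs MITF was no longer past 4-fold, and the median was -0.32. SPRY2 and SPRY4 dampen signalling by receptor tyrosine kinases, and MITF is a transcription factor that acts with KIT in melanocytes and mast cells. Within the embryo, 4 of 21 (PDGFRA, SPRY2, SPRY4 and ETV1) were at least 4-fold higher and 1 lower in hypoblast-like than in trophectoderm-like nuclei, beside 6.73% and 5.43% of all genes. PDGFRA was among the markers that named the hypoblast-like cluster, so nothing is read from its place in that count. SPRY2 was at 123 and 5.64 CPM. GAB2, a docking adaptor, was the lower one, at 71.0 and 621 CPM.

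Of 14 genes of the VWF list in the feature list, 11 could be compared between libraries. FURIN, which cleaves the VWF propeptide, was at least 4-fold higher in the blastoid (152 against 17.1 CPM) and 0 were lower, beside 11.9% and 7.11% of all genes, with a median log2 ratio of 0.13 against -0.09. In the embryo FURIN had 18 UMIs in hypoblast-like nuclei (5.37 CPM), where VWF was highest, and 83 in trophectoderm-like nuclei (36.0 CPM). ADAMTS13, which trims VWF multimers, had 0 embryo UMIs, and SELP, a storage granule protein, had 6. RAB27A, a granule GTPase, was at 76.4 CPM in hypoblast-like and 43.4 CPM in trophectoderm-like nuclei. MYRIP, which binds RAB27A, was at least 4-fold higher in hypoblast-like nuclei, with 24 UMIs against 4 (7.16 and 1.74 CPM), and of 8 genes compared there FURIN alone was lower (6.73% and 5.43% of all genes). F8, the clotting factor that VWF carries, had 20 UMIs in each of these groups.

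Of 30 listed genes around A2M, 27 were in the feature list and 25 could be compared between libraries, and 6 were at least 4-fold higher (among them LRP1, SERPINA1 and PLAT) and 2 lower (C5 and TIMP3) in the blastoid, beside 11.9% and 7.11% of all genes. Their median log2 ratio was 0.68 over all nuclei and -0.05 over kept nuclei of at least 4000 UMIs, where 4 of 23 were higher and 3 lower (8.95% and 5.81% of all genes) and C5 was no longer past 4-fold. A2M itself was lower in both (-3.53 and -4.35). LRP1, its clearance receptor, had 8 UMIs in hypoblast-like nuclei (2.39 CPM), and was at 5.98 CPM in the embryo and 36.9 CPM in the blastoid as a whole. SERPINA1, a liver-type protease inhibitor, had 0 UMIs in the embryo and 275 in the blastoid. Within the embryo, 4 of 18 genes were at least 4-fold lower in hypoblast-like than in trophectoderm-like nuclei and 0 higher, beside 5.43% and 6.73% of all genes. The lower ones were the proteases F2 and PLAU, the clotting initiator F3 and the inhibitor SERPING1. PLAU was at 7.75 and 174 CPM.

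Of 23 genes around PECAM1, 21 could be compared, with 2 at least 4-fold higher in the blastoid (CDH2 and JAM2) and 3 lower (CD177, CDH5 and F11R), and a median log2 ratio of -0.45, or -0.08 in nuclei of at least 4000 UMIs. The shares of all genes were 11.9% higher and 7.11% lower. CD177, a binding partner of PECAM1 on neutrophils, had 26 embryo UMIs. INPP5D, a lipid phosphatase listed with PECAM1, shared its embryo layout, with 329 UMIs in trophectoderm-like nuclei (143 CPM) and 5 in hypoblast-like nuclei (1.49 CPM). CD38, a ligand of PECAM1, lay on the other side, at 455 CPM in hypoblast-like and 92.0 CPM in trophectoderm-like nuclei. Of 20 genes compared between these groups, 6 were at least 4-fold higher in hypoblast-like nuclei (CD38, the junction genes CDH2, JAM2 and JAM3, and the kinases FYN and SRC, which phosphorylate PECAM1) and 2 lower (INPP5D and JUP), beside 6.73% and 5.43% of all genes.

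The lists of other cell types were read in the same contrast of whole libraries, with 11.9% of all genes higher and 7.11% lower. Of 16 endothelial genes compared, 5 were higher (FLI1, EGFL7, MMRN1, SOX18 and ETV2) and 2 lower (CDH5 and ROBO4) in the blastoid. Their median log2 ratio was 0.89 over all nuclei and 0.55 in nuclei of at least 4000 UMIs. Over all nuclei VWF (-3.71) and PECAM1 (-5.31), as single genes, had the opposite sign. In kept nuclei of at least 4000 UMIs, 12 were measured, of which FLI1 was higher and CDH5 and ROBO4 were lower, 3 calls in place of 7, beside 8.95% of all genes higher and 5.81% lower there. Of 5 blood genes CD14 was higher and GATA1 and RUNX1 were lower. Of 8 germ cell genes 0 were higher and DDX4 and MAEL were lower. Of 6 fibroblast genes TAGLN and THY1 were higher and COL1A2 was lower. Of the lineage lists, epiblast had 1 higher and 4 lower of 12, hypoblast 5 higher and 6 lower of 28, and trophectoderm 7 higher and 0 lower of 22. In nuclei of at least 4000 UMIs CD14, GATA1 and TAGLN were no longer past 4-fold. There 4 of 22 trophectoderm genes were higher, beside the same 8.95% of all genes, TP63 and SSLP1 as before and TFAP2A and ELF5, while CDX2, KRT8, KRT18, KRT19 and CLDN4 were no longer past 4-fold.

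The genes most like each of the 4 were taken by Pearson's r over the 20 micro-clusters among 5756 genes with at least 200 embryo UMIs. For KIT they were STAT3, a factor of cytokine signalling (r = 0.99), COL4A1, a basement membrane collagen (0.98), PFKFB4 (0.98), AKAP12 (0.98) and COL4A2 (0.98). STAT3 had the same steps as KIT, at 501 CPM in hypoblast-like, 284 in epiblast-like and 18.7 in trophectoderm-like nuclei. For VWF they were DNAAF9, RNF213, ITGA2, CD47 and CAPN8 (0.92 to 0.95), and for A2M CAPN8, SHISA5, FN1, MAN1A1 and FOXR1 (0.91 to 0.93). CAPN8 stood on both lists. COL4A1, COL4A2 and FN1, fibronectin, were among the markers that named the hypoblast-like cluster. For PECAM1 the values were lower: FAM234B, WASHC5, WDR59, TRIP12 and IQSEC1 (0.84 to 0.88).

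In the blastoid these neighbours in pattern went apart. FOXR1 had 1 UMI there and CAPN8 had 8, next to 506 and 426 in the embryo. COL4A1 kept 800 against 1871 UMIs, and FAM234B 737 against 770. The lists differ in how firmly they stand. With a pseudocount of 50 and with 14 coarser micro-clusters, 4 and 5 of the genes most like KIT were found again, as were 4 and 3 of those most like VWF, 3 and 2 of those most like PECAM1, and 1 and 2 of those most like A2M.

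By gene order in the assembly ARS-UCD2.0, used only for which genes lie next to each other, KIT lies between PDGFRA and KDR. PDGFRA, a marker used to name the hypoblast-like cluster, was at 359 CPM in hypoblast-like, 152 CPM in epiblast-like and 13.0 CPM in trophectoderm-like nuclei. KDR, the VEGF receptor on the other side, had 3 UMIs in the whole embryo library. VWF lies between CD9, at 735 CPM in hypoblast-like and 416 CPM in trophectoderm-like nuclei, and ANO2, with 24 UMIs. A2M lies between OVOS2, with 0 UMIs, and KLRG1, with 3. PECAM1 lies between TEX2, at 82.9 CPM in hypoblast-like and 137 CPM in trophectoderm-like nuclei, and MILR1, with 13 UMIs.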

How the data were processed

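Droplet single-nucleus RNA libraries of 1 blastoid and 1 day 8 blastocyst sample were used. The authors deposited UMI counts for each gene in each barcode. The file headers name Cell Ranger 7.2.0, and the submitters' processing notes name Cell Ranger 7.1.0 and Seurat 4.3.0. Genome build, annotation and cell calling are not given in the sources used here, so no coordinates are printed. Whether intronic reads were counted is not given either; nuclear RNA is rich in them, and this could change levels between genes.

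Barcodes with at least 500 genes and under 10% of UMIs from 13 mitochondrial genes were kept, and the highest Scrublet doublet scores were removed at 0.8% per 1000 barcodes (6 of 833 embryo and 30 of 1944 blastoid barcodes). Each library was clustered alone with scanpy 1.11.5 and leidenalg 0.10.2 (2000 variable genes without the 4 genes and the marker genes, 30 components, 15 neighbours, resolution 0.5). A cluster was named from at least 4 markers with at least 100 UMIs and at least 1.5 times the CPM of the other clusters, when these were at least 2 times as many as for any other lineage. Clusters over 5% ribosomal protein UMIs, or with a median depth under the library median divided by 3, were not named. These naming limits were set after the data had been seen. Micro-clusters used resolution 3 and at least 10 nuclei.

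CPM, exact Poisson, Clopper-Pearson and conditional ratio intervals at 95% and thinning to 2000 UMIs used scipy 1.17.1 and numpy 2.4.6. For lists, genes that reached 20 UMIs in both sums together were counted past 4-fold, with counts under 3 set to 3. The genes named are KIT, VWF, A2M and PECAM1, those of the marker and pathway lists, the 5 most like each by Pearson's r of log2(CPM + 10) over micro-clusters, leading genes of clusters, and nearest named neighbours; some genes of these are not reported here. The 4 genes and all lists were chosen with earlier results of these data known. Sums, ratios and intervals were tested on simulated data. The alternatives were other filters, depths, clusterings, gates, thinning and list minimums.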

Additional observations from a re-analysis of the deposited data

How the results depend on the processing

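No paired analysis was possible because each group has 1 library, and no replicate could be left out. The hypoblast-like over trophectoderm-like and the blastoid over blastocyst ratios kept their directions under each alternative run for them. Of the hypoblast-like over trophectoderm-like ratios 30 values stayed within the counting interval and 2 moved: the log2 ratio of KIT was 4.24 with doublets kept and 4.21 with marker-gated classes, against 4.70. Of the blastoid over blastocyst ratios 23 stayed and 5 moved, leaving aside the scaling to the median of all genes, which shifts every ratio alike. That of A2M was -4.34 at 4000 UMIs or more, set before doublet removal (-4.35 when set on the kept nuclei), and -4.43 without ribosomal-rich and shallow clusters, against -3.53. Shares of nuclei in place of CPM gave -3.15 for KIT, -2.91 for A2M and -4.18 for PECAM1. The cause was not tested.

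Shares of nuclei depended on depth by construction. Without thinning, at 1000 and at 4000 UMIs, the hypoblast-like shares were 88.5%, 48.4% and 81.3% for KIT, 35.8%, 6.80% and 23.1% for VWF, and 39.5%, 12.6% and 30.6% for A2M. The trophectoderm-like share of PECAM1 was 49.8%, 10.3% and 27.0%. Among hypoblast-like nuclei with KIT the shares were 36.4%, 6.25% and 23.0% for VWF and 42.4%, 15.1% and 33.6% for A2M. With at least 1000 genes per nucleus, A2M was in 12.5% of hypoblast-like nuclei and 13.0% of those with KIT, and the cause was not tested.

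Of the lists, the count past 4-fold was 0 of the 3 endothelial genes with at least 100 UMIs and 3 of 12 at 4000 UMIs or more, against 7 of 16, and 3 of 18 around PECAM1 with at least 100 UMIs, against 5 of 21, where fewer genes or nuclei entered. Of all genes 11.9% were higher and 7.11% lower in the main setting, and 8.95% and 5.81% at 4000 UMIs or more. The share of all genes with at least 100 UMIs was not computed, so nothing is read from those counts. The marker gate for epiblast-like nuclei set no limit on hypoblast factors. Of the epiblast-like over hypoblast-like log2 ratios 8 stayed, 14 moved and 1 turned. With at least 1000 genes, with doublets kept, with resolution 1.0 and with marker-gated classes they were -3.15, -2.51, -2.56 and -0.25 for KIT (against -0.96), -2.90, -3.58, -3.57 and 0.00094 for VWF (against -1.12), and -2.81, -4.37, -4.28 and -0.26 for A2M (against -0.98). For PECAM1 the last 3 gave -0.58, -0.74 and -0.73, against -2.08, and with at least 1000 genes it had no UMI in the epiblast-like group. The cause was not tested. The epiblast-like level of KIT ran from 78.3 to 592 CPM over the alternatives. At 4000 UMIs or more no cluster was named epiblast-like, so no value is given. With all deposited barcodes, and without ribosomal-rich and shallow clusters, only whole libraries were compared, since the latter removes no nucleus from the named groups. In the blastoid, PECAM1 rests on 9 UMIs and VWF on 25.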

Other observations

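RUNX1, a transcription factor known from the emergence of blood, led the blood list in the embryo, in which GP1BA, GP1BB, GP9, CPA3 and MS4A2 of platelets and mast cells were at 0 and ITGA2B and GATA1 had 12 and 24 UMIs. It had 1965 UMIs in the kept embryo nuclei, at 428 CPM in hypoblast-like, 482 CPM in epiblast-like and 31.2 CPM in trophectoderm-like nuclei. In the blastoid it had 53 UMIs, 7.08 CPM against 286 CPM in the embryo, with 6.32 CPM in the unnamed cluster that held most of the KIT UMIs. The layout is that of KIT in that both are low in trophectoderm-like nuclei. The epiblast-like level of RUNX1 was not computed under other groupings.

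TFPI, an inhibitor of clotting initiation, was at 288 CPM in the 70 epiblast-like and 89.5 CPM in the hypoblast-like nuclei, a difference not computed under other groupings, and was at 174 CPM in the blastoid against 97.5 CPM in the embryo. JAM2, a junction protein, had 65 UMIs in hypoblast-like, 0 in epiblast-like and 1 in trophectoderm-like embryo nuclei, and 190 UMIs in the unnamed blastoid cluster. CDH2, N-cadherin, was at 118 CPM in hypoblast-like and 1.74 CPM in trophectoderm-like embryo nuclei and at 1334 CPM in that blastoid cluster.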
